A study of Mus musculus with 3 samples.

Results

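ZFP410 CUT&Tag peaks inside protein-coding genes that were called both in induced and in untreated mouse brown preadipocytes numbered 504, of 3256 peaks in the untreated list. They were chosen by 4 properties of the authors' peak lists. An untreated peak on chromosomes 1 to 19 or X was taken where it overlapped an induced peak by at least 1 bp and overlapped no IgG peak, and where its summit lay inside a coding gene and more than 1 kb from both ends of every such gene. Of the untreated peaks, 3126 lay on these chromosomes, 1122 of those had a summit in a gene body, and 507 of those overlapped an induced peak. The overlap with IgG removed 3 of the 507, of which 2 were in Stam2 and 1 was in Fry. The overlap between the lists, and every measure taken from the same peaks in both libraries, is therefore a description of how the sites were chosen and is given with no test.

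The cells were brown preadipocytes of male wild-type C57BL/6 mice, sorted as Lin−CD29+CD34+Sca1+ and kept in culture. The induced library (ZFP410 antibody) came from cells given brown adipocyte differentiation medium for 3 days, the untreated library (ZFP410 antibody) from cells without it, and the IgG library (control antibody) also from untreated cells. Each group held 1 library, so no difference below has a replicate check, no p-value is given, and intervals cover counting error only. IgG on induced cells was not analysed here, and the files hold peaks only, so neither the cell type nor the extent of differentiation could be checked against marker genes.

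In CUT&Tag an antibody brings a transposase to a chromatin protein, and the enzyme inserts sequencing adapters into the DNA nearby. Peaks also form where open chromatin is cut without the antibody's target. ZFP410 is a zinc finger protein best known from mouse and human red cell precursors, where it binds clustered motifs at Chd4 and raises expression of that gene, which encodes a helicase of the NuRD chromatin complex. Brown preadipocytes become adipocytes that burn fuel to make heat, and cyclic AMP, insulin and Wnt signals shape that course.

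The genome sequence under most of these peaks was not analysed here, but 40 sites reached a RefSeq promoter window, which runs from 250 bases before a transcript's start to 50 after it. Such starts lie inside a gene where its outermost annotated end lies farther out, or where another gene lies within it. Windows are shown for 5 sites, since among those with at least 8 untreated fragments and the summit inside the window they hold the most motif matches. Capitals mark matches, on either strand, to AP-1 (TGANTCA), the GC box (GGGCGG), the CCAAT box (CCAAT), ETS (CCGGAA) and CRE (TGACGTCA) motifs. The sequences are from RefSeq, build GRCm38.p6 (the coordinates of mm10), 5′ to 3′ along the strand of the gene.
Aldoa, chr7:126799205-126799504, minus strand: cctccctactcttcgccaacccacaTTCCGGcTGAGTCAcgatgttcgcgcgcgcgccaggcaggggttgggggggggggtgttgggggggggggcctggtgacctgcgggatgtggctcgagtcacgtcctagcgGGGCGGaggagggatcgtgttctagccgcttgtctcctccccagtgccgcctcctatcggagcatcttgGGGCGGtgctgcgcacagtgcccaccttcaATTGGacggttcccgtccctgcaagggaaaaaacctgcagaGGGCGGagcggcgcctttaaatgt
Stag1, chr9:100643198-100643497, plus strand: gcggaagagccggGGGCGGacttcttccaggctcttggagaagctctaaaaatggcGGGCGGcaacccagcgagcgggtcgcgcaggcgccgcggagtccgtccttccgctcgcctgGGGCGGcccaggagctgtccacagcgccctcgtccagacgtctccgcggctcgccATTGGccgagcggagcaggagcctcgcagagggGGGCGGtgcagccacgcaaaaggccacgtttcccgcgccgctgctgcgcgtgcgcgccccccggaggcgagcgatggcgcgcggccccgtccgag
Atxn2l, chr7:126503388-126503687, minus strand: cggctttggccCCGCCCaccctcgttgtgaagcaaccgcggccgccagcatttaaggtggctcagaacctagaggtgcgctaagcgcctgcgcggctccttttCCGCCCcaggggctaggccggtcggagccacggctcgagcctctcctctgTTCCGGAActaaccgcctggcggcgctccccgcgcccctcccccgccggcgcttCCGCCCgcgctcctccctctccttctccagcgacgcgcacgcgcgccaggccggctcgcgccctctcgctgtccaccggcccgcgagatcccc
Rcan1, chr16:92400029-92400328, minus strand: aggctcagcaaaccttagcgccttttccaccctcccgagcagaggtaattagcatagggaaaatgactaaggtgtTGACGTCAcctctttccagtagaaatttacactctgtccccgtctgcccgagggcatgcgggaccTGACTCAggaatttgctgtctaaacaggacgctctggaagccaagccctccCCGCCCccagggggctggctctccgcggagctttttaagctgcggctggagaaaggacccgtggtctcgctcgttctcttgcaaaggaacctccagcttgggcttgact
Fam214b, chr4:43040252-43040551, minus strand: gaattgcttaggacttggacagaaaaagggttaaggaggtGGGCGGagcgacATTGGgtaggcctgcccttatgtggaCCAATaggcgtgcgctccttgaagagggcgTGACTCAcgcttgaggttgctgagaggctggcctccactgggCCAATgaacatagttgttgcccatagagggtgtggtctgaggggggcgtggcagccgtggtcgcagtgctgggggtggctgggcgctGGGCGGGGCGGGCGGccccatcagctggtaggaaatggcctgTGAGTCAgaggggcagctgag

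Aldoa encodes a glycolytic aldolase, Stag1 a subunit of cohesin, Atxn2l a stress granule protein and Rcan1 an inhibitor of calcineurin. The untreated summit lay 3 bp before the start of Aldoa, 43 bp before that of Stag1, 181 bp before that of Atxn2l, 136 bp before that of Rcan1 and 153 bp before that of Fam214b. The window of Aldoa held an ETS and an AP-1 match, 3 GC boxes and a CCAAT box, and that of Stag1 held 4 GC boxes and a CCAAT box. The ETS matches of Atxn2l lie on opposite strands and overlap in part, starting at bases 154 and 156 of the window. For comparison, a window of Chd4 is shown in which capitals mark the core of the known ZFP410 motif (TCCCATAAT), which occurs 2 times, on the opposite strand.
Chd4, chr6:125095731-125096030, plus strand: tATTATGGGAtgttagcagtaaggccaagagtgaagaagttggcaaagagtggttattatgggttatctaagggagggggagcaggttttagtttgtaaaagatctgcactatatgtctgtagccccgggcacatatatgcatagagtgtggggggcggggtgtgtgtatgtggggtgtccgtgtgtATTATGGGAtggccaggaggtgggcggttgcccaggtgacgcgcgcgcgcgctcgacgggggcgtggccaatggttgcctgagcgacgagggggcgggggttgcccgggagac

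None of the 40 windows held that core. A count of 0 of 40 has a 95% Wilson upper bound of 8.76%, and the core was present in 12 of 6671 windows that lie inside genes (0.180%) and in 66 of all 32851 windows (0.201%), so its absence from 40 windows is within what these shares allow. GC boxes were in 24 of the 40 windows (60%, 95% interval 44.6–73.7%), against 28.6% of windows inside genes and 35.7% of all windows. AP-1 matches were in 8 windows (20%, 10.5–34.8%), against 8.17% of windows inside genes and 7.81% of all windows. ETS matches were in 11 (27.5%, 16.1–42.8%), against 10.7% and 14.9%, CRE matches in 3 (7.5%, 2.58–19.9%), against 1.11% and 1.79%, and CCAAT boxes in 16 (40%, 26.3–55.4%), against 33.8% and 37.4%. The windows also differed in base composition, with a median of 23 CpG dinucleotides and 61% G and C at the sites, against 6 and 52% in windows inside genes and 7 and 52.7% in all windows. The part of base composition in the motif shares was not tested, and the motifs were picked after the data had been seen.

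For these 40 sites the term gene body describes a place within the outer ends of a gene, not a distance from every start. They were 8.21% (95% interval 6.09–11%) of the 487 sites on chromosomes the promoter table covers, against 25 of 591 gene-body peaks found in the untreated list alone (4.23%, 2.88–6.17%) and 93 of 1832 found in the induced list alone (5.08%, 4.16–6.18%). Promoter windows cover 0.194% of gene-body bases. A peak was counted where any of its bases reached a window, so the shares of peaks and of bases are unlike measures. Summits within 1 kb of a RefSeq start were 58 of the 487 (11.9%, 9.33–15.1%), and such stretches cover 1.30% of gene-body bases. That share was 7.45% (5.59–9.85%) in the untreated list alone and 8.52% (7.32–9.88%) in the induced list alone. Some sites outside the windows thus also lay near a start, such as a site in Pgs1 with its summit 453 bp past a start. The median untreated summit held 6 fragments at sites in both lists and 4 at those in the untreated list alone. Among sites with at least 5 untreated fragments the shares that overlap a promoter window were 30 of 361 in both lists (8.31%, 5.88–11.6%) and 8 of 147 in the untreated list alone (5.44%, 2.78–10.4%), and these intervals overlap. The summit fell inside the window at 30 of the 40 sites, and 7 of the windows belong to a gene other than the host. Sites at these windows had a median of 9 induced and 6 untreated fragments and lay a median of 3348.5 bp from the nearest gene end, whereas the other 447 sites had 12 and 6 fragments and lay 19172 bp away. The highest of them was in Brd2, which encodes a bromodomain protein of active chromatin, with 47 induced and 23 untreated fragments. At Ifitm2, an interferon-induced antiviral gene, the numbers were 43 induced and 6 untreated. Ifitm2 was named after its values were seen.

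**Figure D1:**
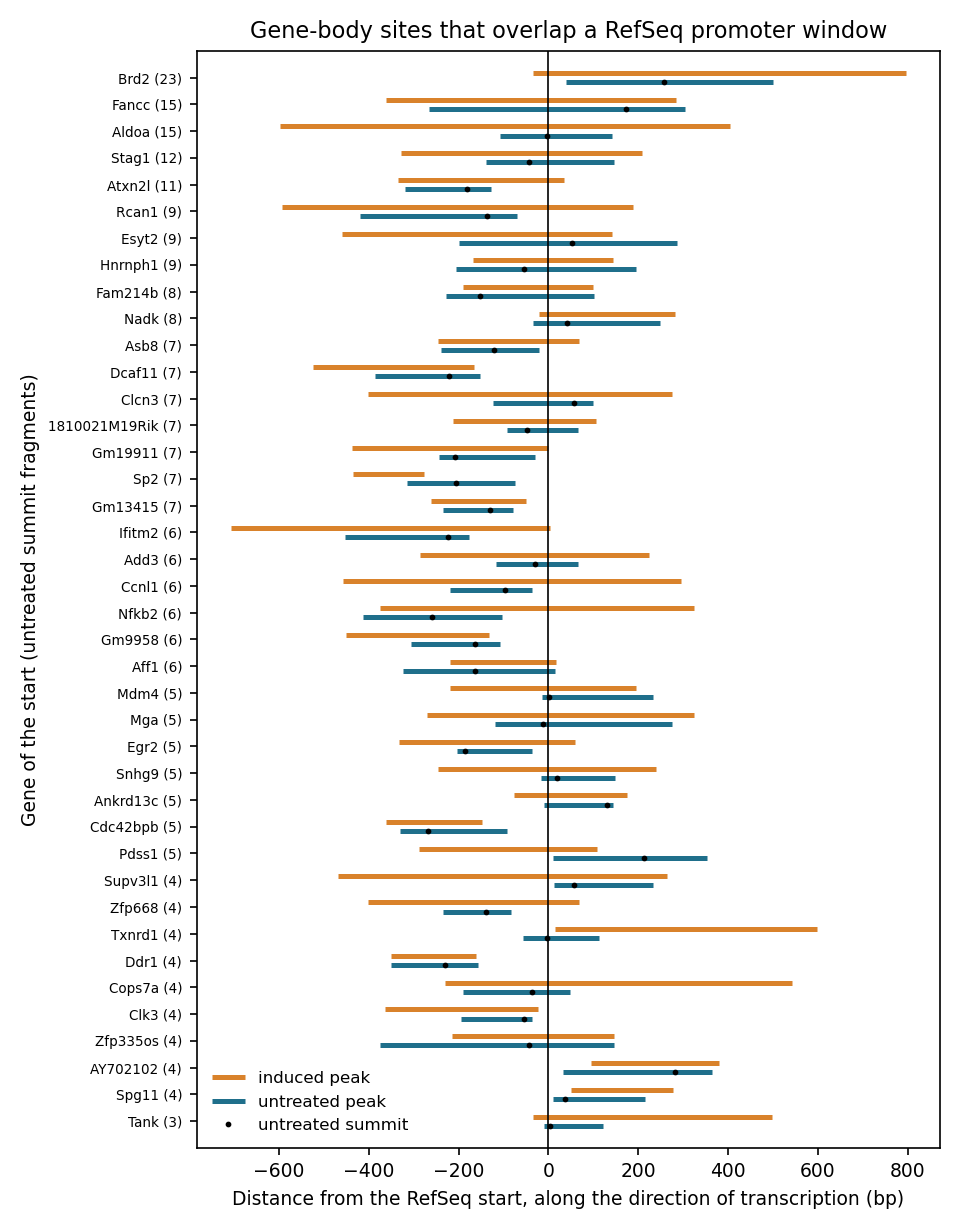
Induced peaks (orange, upper bar of each pair) and untreated peaks (blue, lower bar) at the 40 sites that overlap a RefSeq promoter window, drawn in bp from the start along the direction of transcription. Black dots are untreated summits, 30 of which lie inside the window from 250 bp before to 50 bp after the start, and the number beside each gene is the untreated summit fragments, which run from 23 at Brd2 to 3 at Tank.

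The strength of a site is given as the number of fragments over its summit, which the authors' fold and p-value together return as a whole number. The 504 sites held 4 to 150 fragments in the induced library, with a median of 12 and quartiles of 8 and 19, and 3 to 84 in the untreated library, with a median of 6 and quartiles of 4 and 8. At 128 sites the untreated summit held only 3 or 4 fragments. In the induced library 118 sites had at least 20 fragments and 15 had at least 50, and in the untreated library 84 had at least 10 and 6 had at least 20. The weakest named sites, in Sec24a (a coat protein of transport vesicles), Bdh2 and Frrs1l, had 4 induced and 3 untreated fragments each.

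Alg9 held the strongest site. The gene encodes a mannosyltransferase of the N-glycan precursor, and the peak at chr9:50814711-50815274 lay 28602 bp from the nearest gene end and 58.2% of the gene's length from its 5′ end. It held 150 induced and 84 untreated fragments, and the next highest untreated number was 33. To compare libraries of unequal depth, fragments were divided by the genome background of their own library, 0.246 in the induced and 0.110 in the untreated list, a ratio of 2.24. On that scale the Alg9 site was 0.797 times as enriched in the induced library (95% interval 0.606–1.05), an interval that includes no change.

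The next strongest untreated sites were in genes of varied roles. Btbd9, which encodes a BTB domain protein, had 71 induced and 33 untreated fragments at chr17:30465300-30465731 (ratio 0.960, 0.627–1.5). Pde1a, a phosphodiesterase that calcium and calmodulin switch on, had 80 induced and 25 untreated fragments at chr2:80046909-80047407 (ratio 1.43, 0.902–2.34). Camta1, a calmodulin-binding transcription factor, had 45 and 22 (ratio 0.913, 0.537–1.60). The intervals of all 3 include no change. These sites lay deep in long genes, 117123 bp, 149453 bp and 248252 bp from the nearest end for Btbd9, Pde1a and Camta1. Slc38a9, the arginine sensor of the lysosome, had 43 induced and 18 untreated fragments, and Stard9, a kinesin, had 33 and 18.

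Raised local background marked 66 of the 504 sites, where the caller's local background at the summit was more than 2 times the genome background in either list. Over all sites in both lists, 352 had a local background above the genome value in each list. At 270 of these the 2 local backgrounds stood at the same ratio, 2.24, as the genome backgrounds. The local background is thus not read as a separate property of each ZFP410 library. Among the strongest were Dop1b, with 64 induced and 19 untreated fragments over local backgrounds of 3.91 and 1.74, and the Brd2 site named above. Aida had 25 induced and 18 untreated fragments, and Vac14, a scaffold of the PIKfyve lipid kinase, had 35 and 17. Sites with at least 10 untreated fragments were 21 of these 66. The highest untreated local background was 20.2 times that of the genome. Whether copy number, repeats or open chromatin lies behind these backgrounds was not tested, and the medians of ratios below leave these sites out.

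**Figure D2:**
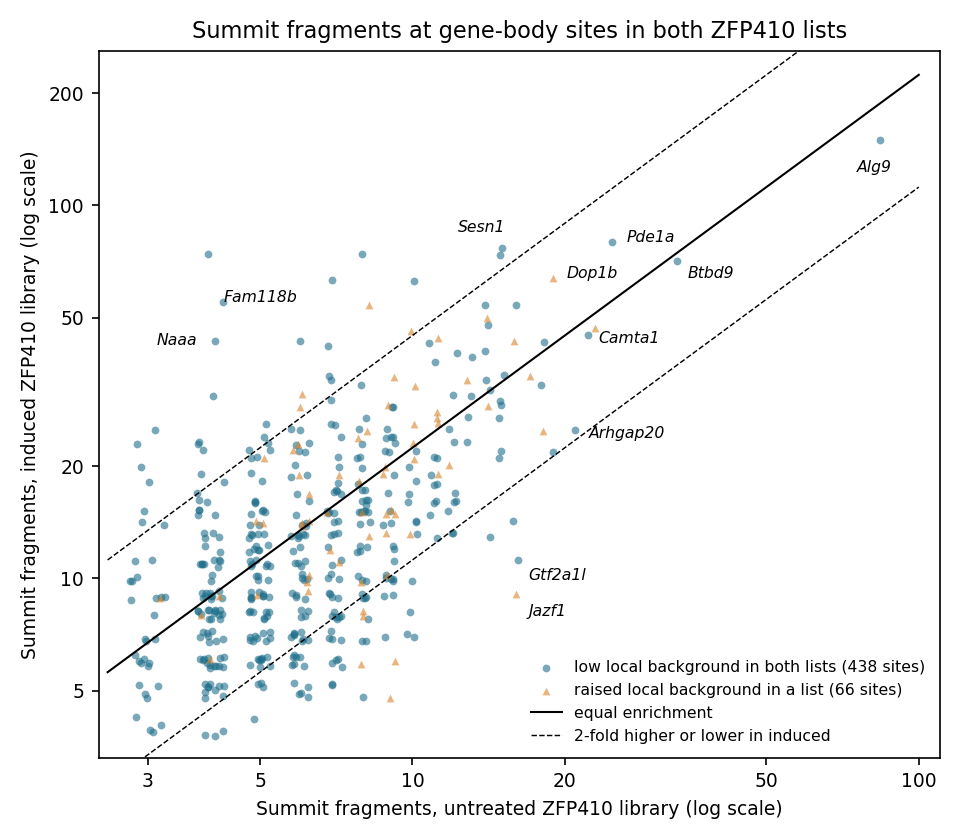
Summit fragments of the 504 sites, induced on the vertical and untreated on the horizontal axis, both logarithmic, with each point moved by up to 0.25 fragments so that equal values can be seen. Circles are the 438 sites of low local background and triangles the 66 of raised background, the solid line marks equal enrichment and the broken lines 2-fold differences, and Alg9 (150 induced, 84 untreated) stands apart at the upper right.

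Over the 438 sites of low background the median ratio of enrichment, induced over untreated, was 0.854 (95% interval of the median 0.803–0.893), or −0.23 on the log2 scale with quartiles of −0.75 and 0.25. That interval comes from the spread over sites of 1 pair of libraries, some under the same induced peak, and does not measure replication. The median was 0.803 at 362 sites near gene ends, 0.893 at 451 sites between genes and 0.837 over all 1251 low-background sites in both lists, so gene-body sites did not stand apart by this measure. With the relative depth of the libraries, 2.01, as the scale, the gene-body median was 0.952. This lies outside the interval of 0.803–0.893, which does not cover the choice of scale. More than 2-fold higher in the induced library were 28 of the 438 (6.39%, 95% interval 4.46–9.08%), against 5.6% over all 1251 sites. Some of the 28 shared their induced peak with another site, and 19 remained with 1 site per induced peak. More than 2-fold lower were 50 of the 438 (11.4%, 8.77–14.7%), against 10.7% over all. Both shares are near those over all sites.

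Sites named for high ratios, among those with at least 20 fragments over both libraries, were in Fam118b, Naaa, Camk1d and Hhat, where Hhat ranked through its weaker peaks alone. Hhat encodes the enzyme that attaches palmitate to Hedgehog proteins, and its 3 untreated peaks had 15, 8 and 4 fragments. A single induced peak of 74 fragments and 2266 bp covered all 3, so only the strongest can be set against it, with a ratio of 2.2 (1.25–4.13). Fam118b had 55 induced and 4 untreated fragments (ratio 6.14, 2.27–23.3). Naaa, a lysosomal enzyme that breaks down fatty acid ethanolamides, had 43 and 4 (4.80, 1.74–18.4), and Camk1d, a calcium and calmodulin-dependent kinase, had 63 and 7 (4.02, 1.84–10.4). Sesn1, a stress-induced protein that restrains mTORC1, had 77 induced and 15 untreated fragments at chr10:41822248-41823351 (2.29, 1.31–4.29). The intervals of these sites exclude 1 for counting error, but the sites were picked from many for their ratios or their induced fragments.

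Among the same 222 sites with at least 20 fragments over both libraries, the lowest ratios were in Jazf1, Gtf2a1l, Simc1, Dnajc13 and App. Jazf1, a zinc finger cofactor, had 9 induced and 16 untreated fragments over a raised background (0.251, 0.0978–0.603). Gtf2a1l, a germ cell form of a general transcription factor, had 11 and 16 (0.307, 0.129–0.704). Simc1 had 14 and 16 (0.391, 0.177–0.854), Dnajc13, an endosomal J domain protein, 13 and 14 (0.414, 0.179–0.951), and App, the amyloid precursor, 10 and 10 (0.446, 0.167–1.19). At these sites the induced library, although deeper, held no more fragments than the untreated one.

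**Figure D3:**
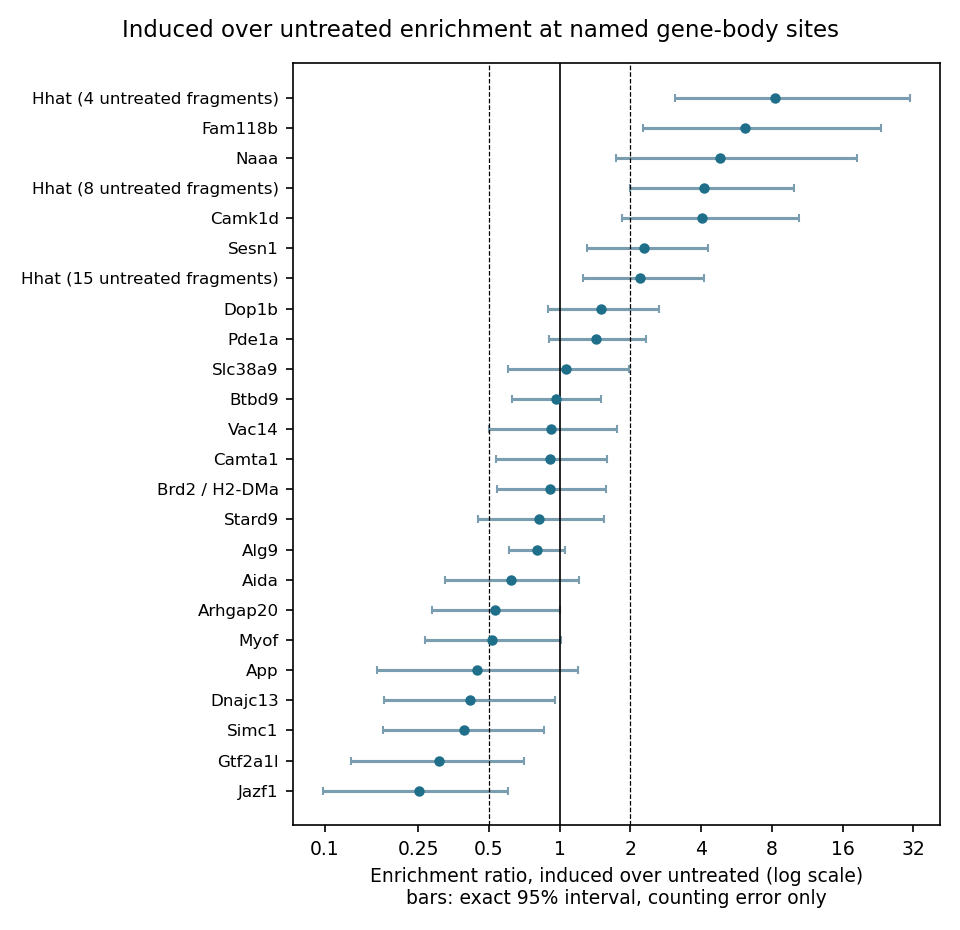
Enrichment ratio, induced over untreated, on a logarithmic axis for sites named for their fragments or their ratio. Points are ratios of summit fragments over 2.24, bars are exact 95% intervals for counting error, and the lines mark equality and 2-fold differences: the interval of Sesn1 (1.31–4.29) lies above 1, that of Gtf2a1l (0.129–0.704) below it, and that of Alg9 (0.606–1.05) includes it.

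Summits in both libraries lay close together. The induced summit was in the same host gene at all 504 sites and was in a gene body at 500, while at 4 it was within 1 kb of a gene end. Summits were a median of 57.5 bp apart and within 100 bp at 350 sites (69.4%, 65.3–73.3%), against 64 bp and 64.8% at gene ends and 58 bp and 69.1% between genes. Induced peaks were wider at 401 sites (79.6%), with median widths of 399.5 bp in the induced and 234.5 bp in the untreated list, and 275 untreated peaks lay wholly inside their induced peak. Peak width grows with the depth of a library, and the part of depth in this difference cannot be told apart from that of induction. The shared stretch was 9 bp long at the 3 sites nearest the limit, in Cc2d2a, Sec24a and Hsd17b12, and peaks in Sh3d19 and Zmynd8 missed an induced peak by 14 bp each.

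Broad sites were few. In the untreated list 10 of the 504 peaks spanned at least 800 bp, and 53 of the sites lay under an induced peak of at least 800 bp, some of them under the same one. The broadest untreated peaks were in Hhat (1367 bp) and in Arhgap20, a GTPase activating protein (1337 bp), where the numbers were 25 induced and 21 untreated fragments (ratio 0.531, 0.286–0.998). Slc38a9 (1145 bp) and Sesn1 (1104 bp) were also among them. Another pair was in the neighbouring genes Tnfrsf22 and Tnfrsf23, which encode mouse decoy receptors for TRAIL and are close copies of each other, so reads there could be assigned to the wrong copy. Tnfrsf22 had 54 induced and 14 untreated fragments and Tnfrsf23 had 39 and 13. Tnfrsf22 was named after its values were seen.

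The sites lay in 445 genes, 2.03% of 21887 coding genes. Single sites were in 395 of these, 2 sites in 38 and at least 3 in 12, and 6 sites lay in 2 overlapping genes. These counts are of untreated peaks, and 28 sites shared their induced peak with another site. Myof, which encodes a membrane repair protein, held 5 sites over 21.4 kb with 22, 22, 8, 14 and 28 induced and 4, 19, 4, 5 and 11 untreated fragments. The first 2 of these were under a single induced peak. Sfi1, a centrosome gene, held 4 sites, 3 of them over raised background and 2 under a single induced peak. Rcan1 held 3 sites, with 6, 29 and 13 induced and 4, 9 and 10 untreated fragments, and the middle site is the one whose promoter window is printed above. Aldoa held 3 sites within 2.60 kb, of which the one at the printed start had 27 induced and 15 untreated fragments and the others had 6 and 7 induced and 6 untreated each. Rcan1 and Aldoa were named after their values were seen.

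Host genes were long. Their median length was 80.7 kb, against 17.2 kb for all coding genes, and 42.7% of them exceeded 100 kb, against 11.1% of coding genes. Longer genes offer more room for a site: 0.232% of genes under 10 kb hosted one and 10.6% of genes over 300 kb. Per length the order turned round, with 0.663 sites per Mb (95% interval 0.588–0.745) in genes of at most 100 kb and 0.235 (0.185–0.295) in genes over 300 kb. The longest genes were thus sparsely occupied, by intervals that do not overlap.

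Density also varied with the distance to the nearest gene end. It was 1.37 sites per Mb (1.02–1.80) at 1 to 2 kb, between 0.483 and 0.687 from 2 to 50 kb, and 0.286 (0.233–0.347) beyond 50 kb. Peaks of the untreated list alone had 1.24 per Mb (0.909–1.65) at 1 to 2 kb and 0.469 (0.401–0.546) beyond 50 kb. Beyond 50 kb lay 20.4% of the sites in both lists (17.1–24.2%) and 27.6% of those in the untreated list alone (24.2–31.2%). With at least 5 untreated fragments these shares were 19.4% of 376 (15.7–23.7%) and 25.7% of 152 (19.4–33.1%), with intervals that overlap. Mappability and open chromatin also change along genes, and their part was not tested.

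**Figure D4:**
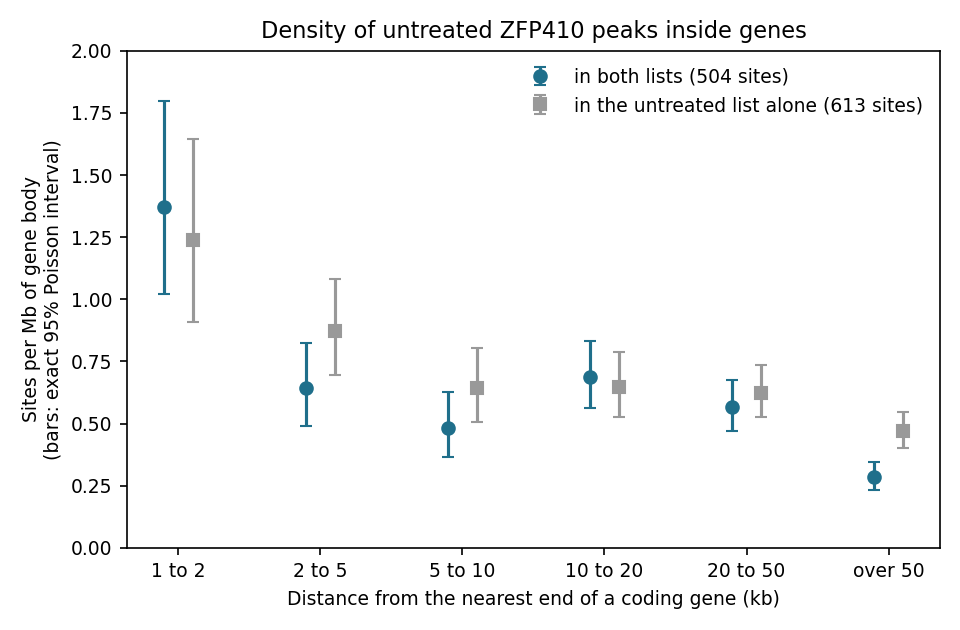
Sites per Mb of gene body by distance from the nearest coding gene end, for the 504 sites in both lists (circles) and 613 gene-body peaks in the untreated list alone (squares), with exact 95% Poisson intervals. Both fall from over 1 per Mb at 1 to 2 kb, and beyond 50 kb the sites in both lists (0.286) lie below those in the untreated list alone (0.469).

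The median site lay 17709 bp from the nearest gene end, and the farthest, in Dlg2, lay 759182 bp away. Of 394 sites in a single host of known strand, 217 (55.1%, 50.1–59.9%) were nearer the 5′ end. Cut into 4 equal lengths from 5′ to 3′, the host genes held 116, 101, 101 and 76 sites. At the 1 kb limit, the nearest sites inside were in Psmd10 and Atg4a (1006 bp from an end), Tnfrsf23 (1007 bp) and Pgs1 (1013 bp), and the nearest outside were in Trim45 (986 bp), Vat1 (954 bp) and S100a4 (938 bp).

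Chromosome X carried few sites. It held 6, or 0.137 per Mb of gene body (0.0503–0.298), against 0.528 per Mb (0.483–0.577) on the autosomes. Peaks of the untreated list alone gave 0.0686 per Mb on X and 0.647 on the autosomes, so the low density was shared. The cells were male and carry a single X, and the part of copy number was not tested. Chromosome 11 had the highest density among autosomes, 0.871 per Mb (0.638–1.16), and chromosome 16 the lowest, 0.317 (0.164–0.553).

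Small RNA genes (small nuclear, nucleolar, transfer, micro, ribosomal and further classes) lay within 500 bp of 5 of the 504 summits (0.992%, 0.424–2.30%). The same classes lay near 1 of 613 in the untreated list alone (0.163%, 0.0288–0.918%), 4 of 1875 in the induced list alone (0.213%, 0.0830–0.547%) and 0.186% of gene-body bases. The 5 sites were in Hhat, in Tex14 (2 sites), in Rps2, which encodes a ribosomal protein, and in Ppp2r1b, a scaffold subunit of protein phosphatase 2A. Small RNA genes occur in near-identical copies, so the origin of reads there is uncertain, and these sites were looked at after the data had been seen.

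Of 45 adipogenic and lipid storage genes 2 hosted a site (4.44%, 95% interval 1.23–14.8%) and of 30 thermogenic genes none did (upper bound 11.4%), beside 2.03% of all coding genes, which both intervals include. Ebf1, an adipogenic transcription factor, had 17 induced and 7 untreated fragments, and Lpin1, a phosphatidate phosphatase, had 7 and 6. For the thermogenic genes 0 sites in 3.17 Mb has an upper 95% limit of 1.16 per Mb, above the 0.485 of all coding genes, so absence was not distinguishable from that density. Of 35 preadipocyte and extracellular matrix genes 3 hosted sites (8.57%, 2.96–22.4%), all of them matrix genes. Per Mb of gene length this list held 1.54 sites (0.419–3.93), an interval that includes the 0.485 of all coding genes. Col4a1, a basement membrane collagen, had 34 induced and 13 untreated fragments (1.17, 0.600–2.41), Fbn1 (fibrillin) had 6 and 4, and Col5a1 held 2 sites, the stronger with 9 and 5.

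Signalling lists are read beside the same 2.03% of all coding genes. In the cyclic AMP list, 3 of 38 genes hosted a site (7.89%, 2.72–20.8%): Ptgs1, a cyclooxygenase, with 25 induced and 6 untreated fragments (1.86, 0.745–5.54), and Gnai1 and Creb1 with 6 induced fragments each and 6 and 5 untreated. Of 21 phosphodiesterase genes 2 did (9.52%, 2.65–28.9%), Pde1a and Pde8b, the second with 9 induced and 4 untreated. In the insulin list 2 of 31 did (6.45%, 1.79–20.7%). Aspscr1, which holds glucose transporter vesicles inside the cell, had 44 and 11 over a raised background, and Pik3ca, the catalytic subunit of PI3 kinase, had 7 and 10 (0.312, 0.101–0.909). Of 38 Wnt, TGF-beta and BMP genes 3 did (7.89%, 2.72–20.8%): the Wnt co-receptor Lrp6 with 29 and 15 (0.863, 0.448–1.73), Tgfbr3 with 23 and 9, and Smad3 with 9 and 5. The median gene lengths of these lists, in the order given, were 64.1, 123, 81.8 and 69.0 kb, against 17.2 kb for all coding genes. Per Mb of gene length these lists held 0.857, 0.377, 0.656 and 1.013 sites, against 0.485 in all coding genes. The phosphodiesterase list thus lay below all coding genes by this measure. Each density rests on 2 or 3 sites, and the part of gene length in the shares was not tested.

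Among chromatin and RNA genes, none of 15 NuRD genes hosted a site, Chd4 included (upper bound 20.4%, above the 2.03% of all coding genes). The Chd4 window printed above lies within 1 kb of that gene's start, where the rule takes no site. This count therefore says nothing about binding at that window. Hdac4, a histone deacetylase that acts as a transcriptional co-repressor, had 21 induced and 5 untreated fragments. Igf2bp3, a reader of m6A in RNA, shared a site of 20 and 10 fragments with the overlapping gene Malsu1, 1 of 21 m6A genes (4.76%, 0.846–22.7%). Alg9 was the 1 host among 27 N-glycan enzymes (3.70%, 0.657–18.3%), and Btbd9 and Btbd16 (9 and 6 fragments) were those among 32 BTB genes (6.25%, 1.73–20.1%). Hosts among 32 stress genes were 3 (9.38%, 3.24–24.2%): Sesn1, Hspb8 (10 and 3) and Dnajc1 (4 and 4). Per Mb of gene length the m6A list held 0.861 sites, the N-glycan list 1.21, the BTB list 0.442 and the stress list 2.89. All coding genes held 0.485, and each list's density rests on 1 to 3 sites. The interval of the stress list, 0.596–8.45, lies above 0.485, and with gene ends at 2 kb its density was 1.93. The lists were chosen with earlier results of these data known. None of 35 cell cycle genes (upper bound 9.89%) and none of 30 markers of other cell types (11.4%) hosted a site, and both bounds lie above the 2.03% of all coding genes.

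The 40 long neuronal genes hosted 3 sites, 0.0612 per Mb (0.0126–0.179), below the 0.235 (0.185–0.295) of all genes over 300 kb by intervals that do not overlap. Dlg2, a synaptic scaffold, had 27 induced and 8 untreated fragments, Nrxn3, an adhesion protein of synapses, 17 and 7, and Gabrg3, a GABA receptor subunit, 13 and 5. The comparison is not matched for length: the neuronal genes had a median length of 1102 kb, and density fell with gene length over all coding genes. The part of length in the difference was not tested. Expression and chromatin state of these genes were not measured here.

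Gene-body peaks of the untreated list overlapped an induced peak in 507 of 1122 cases (45.2%, 42.3–48.1%), against 47.7% of all untreated peaks. The share followed strength: 11.3% at 3 fragments, 33.1% at 4, 56.7% at 5 or 6, 84.6% at 7 to 9, 93.7% at 10 to 14 and 89.7% at 15 or more. The IgG list held 480 peaks from a shallow library, in which the median site would give 1.26 fragments at equal enrichment and only 25 of the 504 would give at least 3. At most sites the depth of the IgG library could not show a background of equal size. The 3 sites left out for IgG had 15, 15 and 24 induced, 6, 5 and 25 untreated and 6, 5 and 5 IgG fragments, in Stam2, Stam2 and Fry.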

How the data were processed

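ZFP410 was mapped by CUT&Tag in 1 induced and 1 untreated library, with 1 IgG library of untreated cells, grouped by the labels. MACS2 2.1.1, Bowtie2 2.2.6 and Picard were used on mm10, per the submitters' processing notes. Duplicate handling and the caller's control were not given in the sources used here. Deposited lists, 1 per library, give for each peak a score, a fold over local background, −log10 values of p and q, and the summit offset. The score was not used, and the authors' folds were compared between lists only as an alternative. Total fragments per library are not in the peak lists.

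Fragments and local background at each summit were solved from the deposited fold, (fragments + 1) over (background + 1), and −log10 p, a Poisson tail, accepting a gap under 0.001. This gave whole fragments for 7474 of 7475 induced, 3255 of 3256 untreated and 479 of 480 IgG peaks. A check on simulated data used the same formulas, so it covers the solving and not whether the caller used them. The enrichment ratio is induced over untreated fragments over 2.24, the ratio of genome backgrounds. Where an induced peak covered several sites, its summit served each. Low background means no more than 2 times that of the genome, in each list. Gene ends came from 21887 coding genes of a RefSeq table (GRCm38.p6), strand and starts from a RefSeq promoter table without chromosome 18. Exons and introns were not analysed here.

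Intervals are Wilson (shares), exact Clopper-Pearson (ratios), exact Poisson (densities) and order-statistic (medians). Named genes were the sites with most fragments (12 untreated, 8 induced), the 5 highest and 5 lowest ratios, genes with at least 4 sites, up to 4 hosts per gene list, and sites at the limits. Predicted genes were skipped. The members and the 17 gene lists were chosen with earlier results of these data known. Some list genes, and 1 list, are not reported here. Python 3.11.15, numpy 2.4.6, pandas 2.3.3 and scipy 1.17.1 were used.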

Additional observations from a re-analysis of the deposited data

How the results depend on the processing

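No paired analysis was possible because each group held 1 library, and for the same reason no replicate could be left out. The number of sites was 245 with −log10 q of at least 5 in both lists and 289 with at least 50% of each peak overlapped. It was between 351 and 558 with summits within 100 bp, with gene ends at 500 bp or 2 kb, with IgG sites kept, or (chosen after seeing the data) without promoter windows. The overlapping share of gene-body peaks was 74.5% at that q, 25.8% at 50% overlap and 31.4% with summits within 100 bp, since these settings select by strength or by position. The median ratio was 0.785 at 50% overlap, 0.952 by relative depth and 1.58 from the authors' folds. The last is above 1, where the others are below it: with backgrounds far below 1, those folds follow the number of fragments, and so the depth of the library. Sites more than 2-fold higher numbered 28, with 37 by depth and 19 with 1 site per induced peak, and sites more than 2-fold lower numbered 50, 43 and 50 under the same settings. Depth limits all of this: most sites rest on 3 to 8 untreated fragments, so only large ratios can be seen at a single site.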
